A study of Homo sapiens with 15 samples.

Results

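The 2 FOXA1 chromatin immunoprecipitation and sequencing (ChIP-seq) libraries described here came from engineered 22Rv1 cells exposed to the stereoprobe WX-02-23, and differed in the FOXA1 form that doxycycline induced. The first line expressed wild-type FOXA1 (WT) and the second expressed C258A FOXA1, in which a cysteine is replaced by alanine. Both peak lists were compared whole: 25849 peaks in the WT list and 20609 in the C258A list, together 46458 of the 249079 peaks in the 12 lists of the series. Peaks that overlapped by at least 1 bp were called shared, and a peak without such a partner in the other line was called private. Positions follow the human build hg19.

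22Rv1 is an established human prostate carcinoma line. Both engineered lines also stably expressed the Y36C form of PHF5A, a subunit of the splicing factor complex that pladienolide B (PladB) binds, and the substitution is known to weaken the action of such splicing inhibitors. Both libraries received doxycycline and 20 µM WX-02-23, with 3 h of compound. For reference, the same lines had been profiled without doxycycline (noDox, DMSO only) and with doxycycline and DMSO at 0.1%. Parental 22Rv1 cells had been profiled with DMSO, WX-02-23 at 20 µM, WX-02-43 at 20 µM (the other stereoprobe of the study), PladB, an siRNA against FOXA1 or a control siRNA. The labels name no dose or time for doxycycline, and do not say whether a line is a single clone. The antibody recognised FOXA1 itself, so endogenous and induced protein cannot be told apart.

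FOXA1 is a forkhead pioneer factor, a protein that binds its sites in closed chromatin and helps to open them for other factors. In prostate luminal cells it is best known for shaping where the androgen receptor binds. The series asks, by its title, how covalent small molecules redirect this function. Setting C258A against wild type under WX-02-23 asks how FOXA1 locations differ with the induced form when the compound is present. Without doxycycline the lines also gave FOXA1 peaks, 8575 in WT and 12752 in C258A cells. Endogenous FOXA1 may thus contribute to both libraries, and the comparison does not isolate sites that need the cysteine. Each line had 1 library with this treatment, so no difference has a replicate check, no test between the lines was made, and the intervals given are Wilson 95% intervals for counting error only. Sequencing depth is unknown, and depth, enrichment and binding cannot be told apart as sources of a longer or shorter list. Peak lists carry neither transcript levels nor alleles, so the labelled cell type and FOXA1 form could not be checked in them.

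Most FOXA1 sites of the C258A line were also sites of the WT line under WX-02-23, and the WT line had the larger set of its own. Of the WT peaks, 14689 (56.8%, 56.2 to 57.4%) had a C258A partner and 11160 (43.2%) were private. Of the C258A peaks, 14672 (71.2%, 70.6 to 71.8%) had a WT partner and 5937 (28.8%) were private. These shares move with the list lengths. When only the 20609 WT peaks of highest score were used, 63.7% (63.0 to 64.3%) of both lists were shared, and 7490 WT and 7484 C258A peaks (36.3% of either list) were private. Among the C258A peaks private at that length, 1547 had a partner lower down in the whole WT list.

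Private shares of the strongest sites differed between the lines, which the totals at equal length could not show. With nearly unique pairing, equal lengths make the 2 private totals nearly match. At 20609 peaks each, 5.05% of the 10% of WT peaks with the highest scores were private, against 2.04% in C258A cells. In the next 10% the private shares were 13.2% in WT and 6.65% in C258A cells. A higher WT share at the top therefore had to be offset further down the list. In interval 7 of 10 the WT share was 45.2% and the C258A share 49.7%. In the weakest 10% the shares were 64.3% and 66.5%, with overlapping intervals.

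The same lines without compound gave a reference for this level of sharing. At the deposited lengths, 61.2% of WT and 6.39% of C258A peaks were private with DMSO, but those lists differ far more in length. With all 4 lists at 13299 peaks, the length of the C258A DMSO list, 37.4% of WT and 37.3% of C258A peaks were private under WX-02-23. Under DMSO the corresponding shares were 30.5% and 29.5%. The difference between the conditions was not largest at the top. In WT cells the private share was 5.04 percentage points higher with WX-02-23 than with DMSO in the strongest 10%, 11.8 points higher in interval 3, and in the weakest 10% the difference was -1.58 points. In C258A cells it was 1.13 points higher in the strongest 10%, the smallest difference of the 10 intervals, and 11.9 points higher in interval 6. In the top 10% of these shortened lists, 5.86% of WT and 1.43% of C258A peaks were private with WX-02-23, against 0.827% and 0.301% with DMSO. With every list cut to its 2000 highest-scoring peaks, a shared peak needs a partner among the top 2000 of the other line. By that stricter measure 55.9% of WT peaks were shared under WX-02-23 (53.7 to 58.0%) and 66.5% under DMSO (64.4 to 68.5%).

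**Figure D1:**
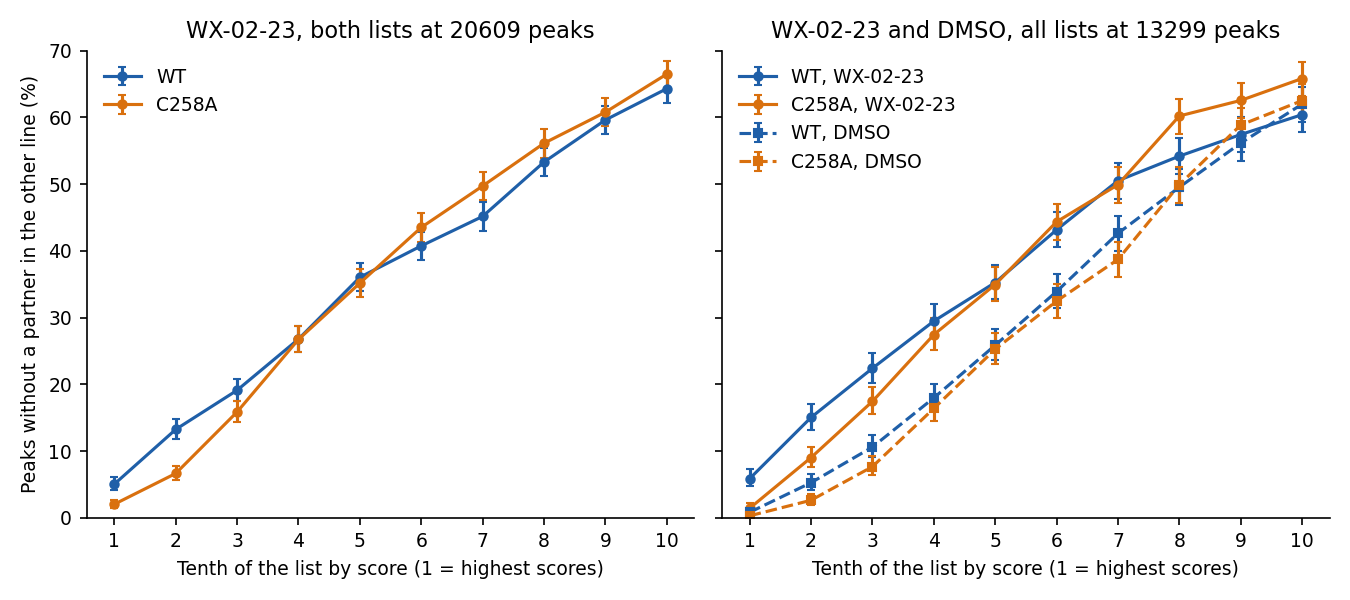
Share of peaks without a partner in the other line (vertical axis, %) in each 10% of a list ordered by score (horizontal axis), with Wilson 95% intervals; on the left WX-02-23 at 20609 peaks per list, on the right WX-02-23 (solid) and DMSO (dashed) at 13299. In the strongest 10% on the left the WT share is 5.05% and the C258A share 2.04%, and on the right the DMSO shares lie below 1%.

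Shared sites lay at closely matching places in the 2 lines. The 14772 overlapping pairs had a median distance of 37.5 bp between peak centres, and 95% of them lay within 163.5 bp. In only 89 pairs (0.602%) was less than 50% of the narrower peak covered. Pairing was close to unique, with 82 WT peaks spanning 2 or more C258A peaks and 99 C258A peaks spanning 2 or more WT peaks.

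Shared sites nevertheless differed in strength order between the lines. Over the 13198 pairs at equal length, the ranks had a Spearman rho of 0.54, a description across peaks of 2 libraries that are not replicates. At 13299 peaks per list rho was 0.52 with WX-02-23 (8373 pairs) and 0.62 with DMSO (9380 pairs). The median pair lay 3288 ranks apart. Of the pairs, 1284 (9.73%) were more than 10000 ranks apart, 630 with the higher rank in WT and 654 with the higher rank in C258A cells. Among the 12908 pairs in which each peak had 1 partner, 1219 were that far apart, 601 with the higher rank in WT and 618 in C258A cells. Ranks are relative within lists of the same length, so these near-even splits do not show whether either line gained or lost strength.

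**Figure D2:**
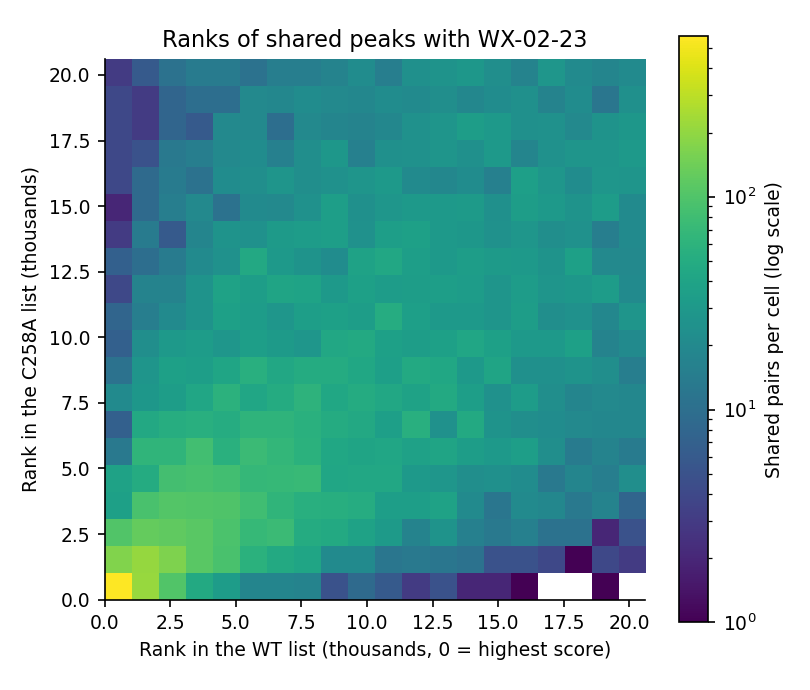
Number of shared pairs (colour, log scale) by rank in the WT list (horizontal axis) and in the C258A list (vertical axis), in units of 1000, with both lists at 20609 peaks. Pairs crowd where both ranks are highest, and the remainder spreads widely around the diagonal (rho 0.54); white cells hold no pair.

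Positions with the largest rank shift show what such a change looks like. A peak on chromosome 12 from 112572529 to 112573113 ranked 656 with a score of 1011.87 in WT cells, and its C258A partner ranked 20075 with a score of 92.46. The same place ranked 2913 in the parental WX-02-23 list, 25770 of 30557 in the parental DMSO list and 9299 of 31735 in the WT DMSO list, and was listed neither with WX-02-43 nor in C258A cells with DMSO. On chromosome 6 from 169913462 to 169914234, a WT peak ranked 1029 and its C258A partner 20430, and outside the 2 WX-02-23 lists it was called just once, with DMSO in WT cells (rank 3607). The third pair by the rule, on chromosome 12 from 95666865 to 95667822, arose from a WT peak (rank 329) that spanned 2 C258A peaks, the stronger of which ranked 2449.

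In the other direction, a C258A peak on chromosome 4 from 135307199 to 135308047 ranked 1492 with a score of 637.3, against rank 20078 and a score of 115.25 in WT cells. Under DMSO that place was listed in both lines, at rank 8714 of 31735 in WT and 2591 of 13299 in C258A cells. On chromosome 10 a C258A peak from 22375542 to 22376161 ranked 1733 and spanned 2 WT peaks. The weaker, 275 bp wide, ranked 20198, but the stronger, 560 bp wide, ranked 2212, so the shift is that of a side peak. This was also a parental site, which ranked 602 in parental DMSO, 391 of 18228 with WX-02-43, 1425 with WX-02-23 and 1884 in WT cells with DMSO. The last, on chromosome 8 from 14796866 to 14799226, was a C258A peak of 2361 bp and rank 1007 with a pair of WT partners, the stronger of which ranked 1381.

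Private peaks were the weaker and narrower part of either list. At equal length the median width was 584 bp for shared and 523 bp for private WT peaks, and 588 and 488 bp for C258A peaks. Within a score interval that difference was small or turned round. In the top 10%, private peaks were the wider ones, with medians of 792 against 756 bp in WT and 829 against 791 bp in C258A cells, and in the lowest 10% they were narrower, with 463 against 474 bp and 403 against 416 bp. Median scores at the deposited lengths were 236.43 for shared and 130.68 for private WT peaks, and 219.745 and 126.24 for C258A peaks. Few private peaks were near misses in position within the lists at equal length. There the nearest peak of the other line lay a median of 36.2 kb away from WT and 33.2 kb from C258A private peaks. Such a peak lay within 2 kb for 6.98% and 7.59% of them. Peaks below the cut are not counted in these distances, and 1547 of the C258A private peaks overlapped such a WT peak.

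The lists with doxycycline and DMSO show whether a private site was also called in the same lines without compound. At equal length, 58.0% (56.8 to 59.1%) of WT private peaks were in the WT DMSO list and 4.97% (4.50 to 5.48%) in the C258A DMSO list. Of the C258A private peaks, 38.2% (37.1 to 39.3%) were in the C258A DMSO list and 68.7% (67.6 to 69.7%) in the WT DMSO list. The DMSO lists differ in length, at 31735 and 13299 peaks, and the order of the last pair of shares turned round at matched length. With the WT DMSO list cut to 13299, it held 17.2% of the WT private and 23.8% (22.8 to 24.8%) of the C258A private peaks. At matched DMSO length, the other line's DMSO list held 23.8% of C258A private sites but 4.97% of WT private sites. Matching the length does not match how the sites were chosen. WT private sites were absent from the whole C258A list with the compound. C258A private sites were absent only from a shortened WT list, and 1547 of them overlapped a WT peak below the cut. Part of a low share is therefore built in, and how far this enters the contrast was not tested.

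Sites that neither line had shown with DMSO were more frequent among the WT private peaks. They made up 3116 of 7490 WT private peaks (41.6%, 40.5 to 42.7%) and 1936 of 7484 C258A private peaks (25.9%, 24.9 to 26.9%) at equal length, against 3.83% of shared peaks. In none of the other 10 lists of the series were 2350 WT private (31.4%), 1426 C258A private (19.1%) and 245 shared peaks (1.87%). The length of the other lists enters these shares, as does the choice of private sites by absence from the other line's list. The part of either was not tested.

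Partners were next sought for the 2000 highest-scoring peaks of each list among all 20609 peaks of the other. By this measure 98 WT peaks (4.90%) and 37 C258A peaks (1.85%) were private. Of these C258A peaks, 14 had a WT partner lower in the whole WT list, and 23 were private against that list, of which 23 were in the C258A DMSO list and 21 in the WT DMSO list. Of the 37 C258A peaks, 37 were in the C258A DMSO list, 35 in the WT DMSO list and 32 in the top 13299 of that list. Of the 98 WT peaks, 87 were in the WT DMSO list, 7 in the C258A DMSO list, and 8 were called nowhere else in the series. The median rank of the WT peaks was 8260 of 31735 in the WT DMSO list and 1296.5 of 20609 with the compound. The median rank of the C258A peaks was 1632 of 13299 with DMSO and 1619 of 20609 with the compound. Of the strong C258A private sites, 35 of 37 were therefore listed with DMSO in both lines. That is near the level of the whole C258A DMSO list, of which 93.6% had a partner in the longer WT DMSO list. Of the strong WT private sites, 7 of 98 were in the C258A DMSO list. The whole WT DMSO list, at 38.8%, is not a matched level, since it was not chosen by absence from a C258A list. Private sites were chosen by absence from the other line's WX-02-23 list. Part of a low share in that line's DMSO list is therefore built in. How far this choice, and depth and enrichment of the 4 libraries, enter the contrast between the lines was not tested.

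**Figure D3:**
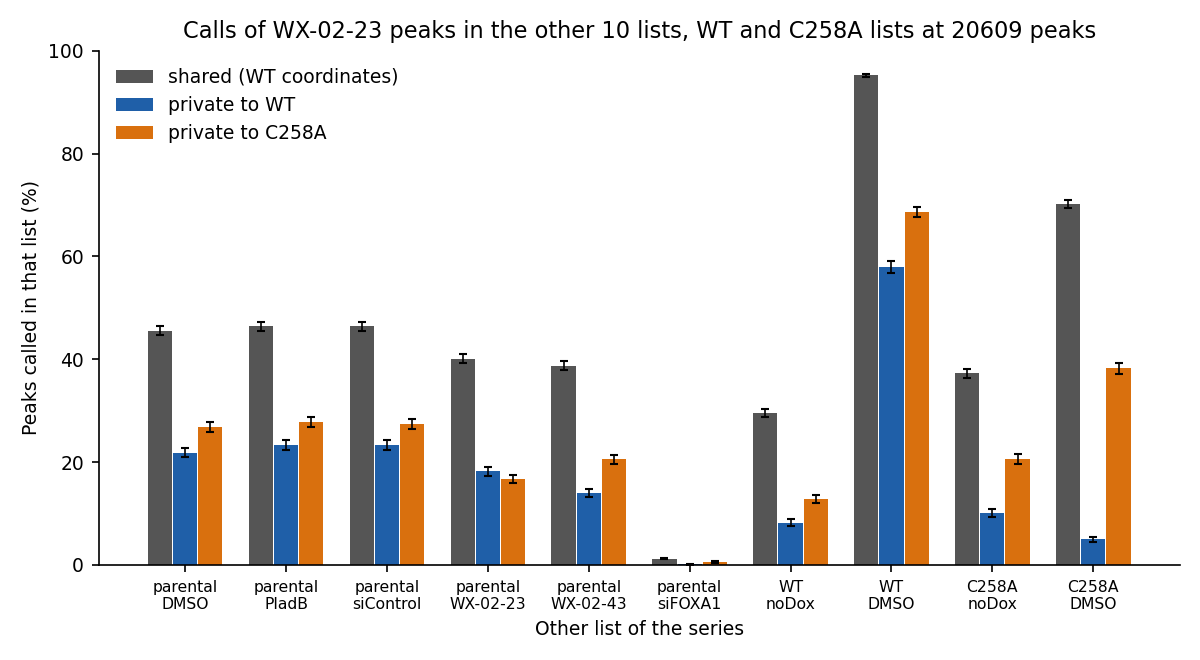
Share of shared (grey), WT private (blue) and C258A private (orange) WX-02-23 peaks (vertical axis, %) that were called in each of the other 10 lists (horizontal axis), with Wilson 95% intervals and both engineered lists at 20609 peaks. The WT DMSO list of 31735 peaks holds 68.7% of C258A private peaks (23.8% when cut to 13299, not drawn) and the C258A DMSO list of 13299 peaks holds 38.2% of them and 4.97% of WT private peaks.

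The lists of parental cells held a minority of either private set. At the deposited lengths, 44.3% of shared peaks, 22.3% (21.5 to 23.1%) of WT private peaks and 25.1% (23.98 to 26.2%) of C258A private peaks were parental DMSO peaks. With WX-02-23 in parental cells, the shares were 38.5% of shared, 17.5% (16.8 to 18.2%) of WT private and 14.6% (13.7 to 15.5%) of C258A private peaks. With WX-02-43 they were 37.5%, 14.1% (13.5 to 14.8%) and 18.9% (17.9 to 19.9%). The 2 private sets thus fell in opposite order: WT private sites were more often parental WX-02-23 sites than WX-02-43 sites, and C258A private sites the reverse. Shared sites lay near equality.

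The order of the stereoprobes was seen over most of the range of scores, but not among the very strongest peaks. In each of 10 score intervals, more WT private peaks were in the WX-02-23 list than in the WX-02-43 list. Among C258A private peaks, fewer were in the WX-02-23 list in 9 intervals, and the strongest interval gave equal shares. Counts at the top were small. Of 29 WT private peaks in the top 1000, 4 were in the WX-02-23 and 7 in the WX-02-43 list. In the top 2000 these counts were 13 and 12 of 98 WT private peaks, and 3 and 3 of 37 C258A private peaks. At equal length of the engineered lists, the differences were 4.33 percentage points for WT private and -3.82 points for C258A private peaks. Reducing the parental lists to 17217 peaks as well gave 5.14 and -3.10 points.

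Sites that parental cells showed with both stereoprobes cancel in such a difference, so by definition it is made up of sites called with only 1 of them. Of the WT private peaks, 759 (6.80%, 6.35 to 7.28%) were called with WX-02-23 and not with WX-02-43, and 380 (3.41%, 3.08 to 3.76%) the other way round. Of the C258A private peaks, 152 (2.56%, 2.19 to 2.99%) were called with WX-02-23 alone of the pair and 408 (6.87%, 6.26 to 7.54%) with WX-02-43 alone. Sites that parental cells showed with DMSO and with WX-02-43 but not with WX-02-23 made up 3.15% (2.84 to 3.49%) of WT private and 6.52% (5.92 to 7.17%) of C258A private peaks. Sites in the parental WX-02-23 list and not in the parental DMSO list made up 3.64% (3.31 to 4.002%) of WT private and 1.01% (0.786 to 1.30%) of C258A private peaks. Parental WX-02-23 sites that no parental DMSO, WX-02-43, PladB or control siRNA list held made up 2.31% (2.05 to 2.61%) of WT private, 0.438% (0.299 to 0.641%) of C258A private and 1.79% of shared peaks.

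The same lookup was made without compound. With all 4 lists at 13299 peaks, WT private peaks under WX-02-23 were in the parental WX-02-23 list at 24.7% (23.6 to 26.0%) and in the WX-02-43 list at 18.7% (17.6 to 19.8%), a difference of 6.04 points. WT private peaks under DMSO gave 26.9% and 27.6%, a difference of -0.67 points with overlapping intervals. C258A private peaks gave -3.65 points under WX-02-23 (19.7% and 23.3%) and -3.24 points under DMSO (14.7% and 18.0%). Shared peaks of both lines went from a negative to a positive difference: -2.77 points with DMSO and 1.61 with WX-02-23 for WT peaks, and -2.73 and 1.66 points for C258A peaks. Over the whole lists the differences were -2.13 and 3.26 points in WT and -2.88 and -0.32 points in C258A cells. Shared peaks are the same overlapping sites counted in either list, so their values in the 2 lines are not separate results. They also enter both whole-list values. Among private peaks the value was higher with the compound in WT cells, at 6.04 against -0.67 points. In C258A cells it was not higher, at -3.65 against -3.24 points.

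**Figure D4:**
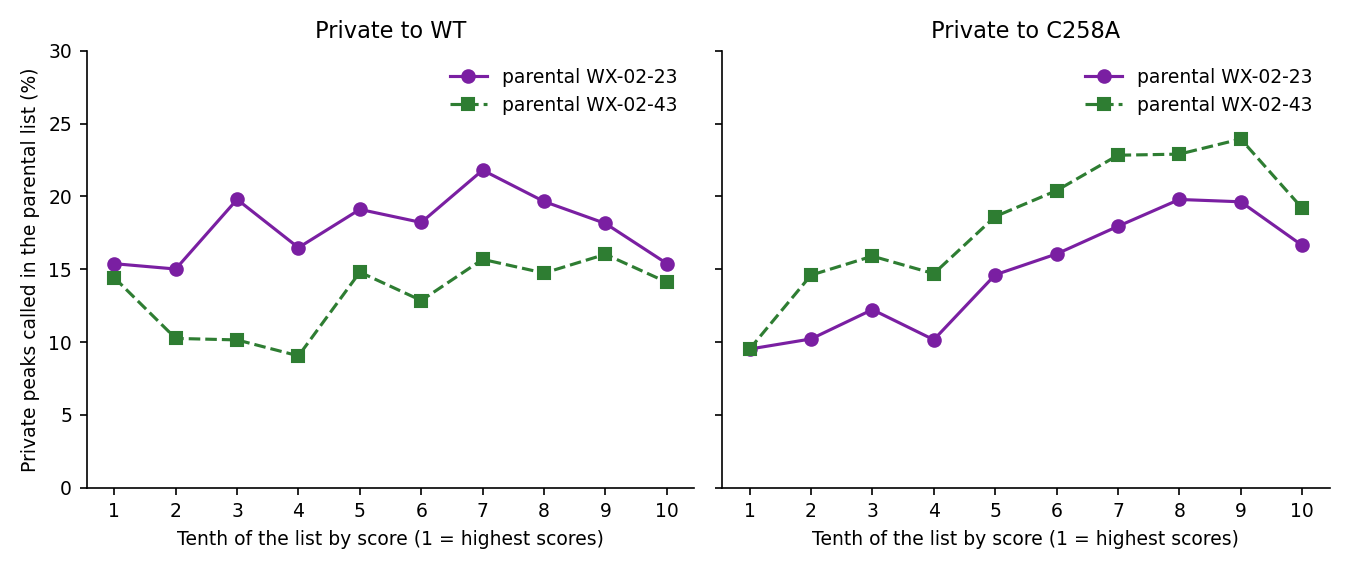
Share of private peaks called in the parental WX-02-23 list (purple circles) and in the parental WX-02-43 list (green squares), in % (vertical axis), for each 10% of the engineered list ordered by score (horizontal axis), both at 20609 peaks. On the left, private to WT, the WX-02-23 line lies above in all 10 intervals; on the right, private to C258A, it lies below in 9 and is equal in the strongest.

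Private WT sites were spread over all chromosomes, with higher shares on several of them. At equal length the private share of WT peaks ran from 31.1% on chromosome 8 to 51.0% (43.2 to 58.7%; 79 of 155 peaks) on chromosome 19, known as gene-dense, around 36.3% for the whole list. The intervals of chromosomes 5, 15, 16, 17 and 19 lay above that level, with 44.2% on chromosome 16 and 44.1% on chromosome 17, and those of chromosomes 4, 7, 8 and 13 below it. Of the C258A peaks, 32.1% (24.2 to 41.3%) were private on chromosome 19, 36.1% on chromosome 16 and 30.2% on chromosome 17. Their autosomal shares ran from 30.2% on chromosome 17 to 39.8% on chromosome 5. In the C258A list the intervals of chromosomes 4, 5, X and Y lay above its level and those of chromosomes 1, 7, 10 and 17 below it. Chromosome 5 was thus above and chromosome 7 below in both lists, while chromosomes 4 and 17 went in opposite directions. On the X chromosome 46.6% (41.5 to 51.8%; 167 of 358) and on the Y chromosome 51.8% (42.7 to 60.7%; 59 of 114) of C258A peaks were private. Without compound, at 13299 peaks, chromosomes 15, 19 and 22 were above the level of the WT list, at 36.3%, 45.1% (34.8 to 55.9%; 37 of 82) and 49.5%, so chromosomes 15 and 19 stood above it with and without compound. No chromosome of the C258A DMSO list had an interval above its level of 29.48%. Its X and Y shares were nonetheless its highest, at 34.8% (56 of 161, 27.9 to 42.4%) and 40.6% (26 of 64, 29.46 to 52.9%). In the WT list under WX-02-23 the X share was 41.4% (36.2 to 46.8%) and the Y share 31.7% (22.6 to 42.4%), around its level of 36.3%.

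**Figure D5:**
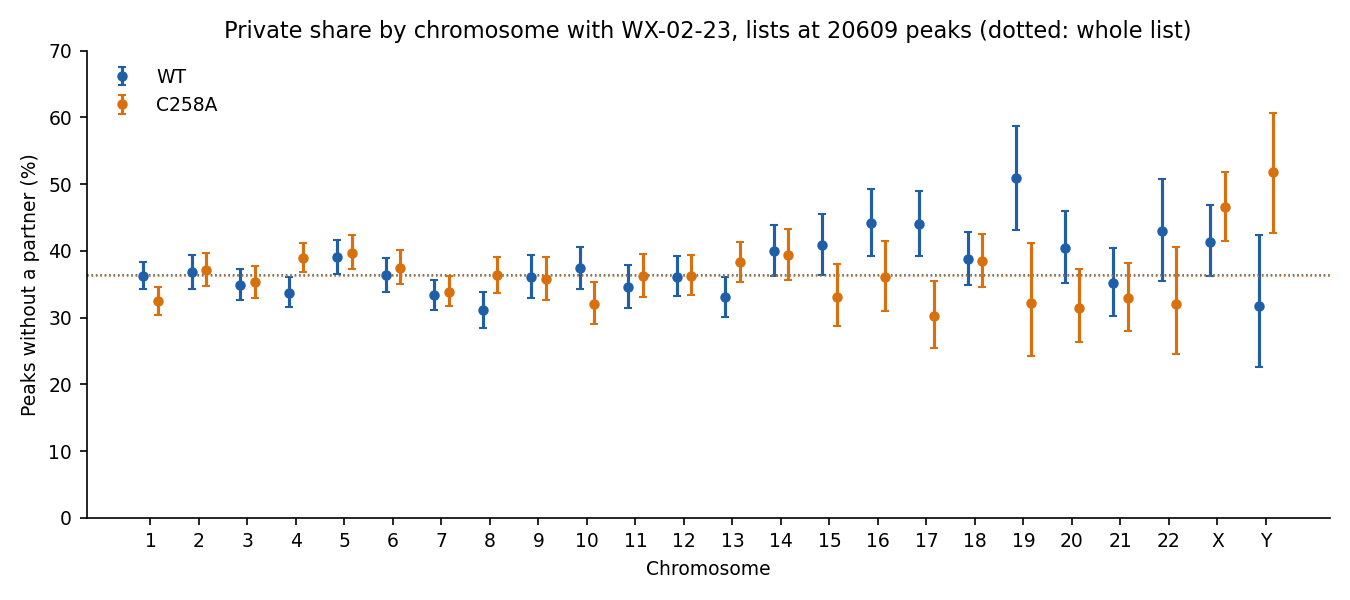
Share of peaks without a partner in the other line (vertical axis, %) on each chromosome (horizontal axis) for the WT (blue) and C258A (orange) lists under WX-02-23 at 20609 peaks, with Wilson 95% intervals; dotted lines mark the whole lists. The WT share on chromosome 19 is 51.0% and the C258A share 32.1%.

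The highest-scoring private peaks of the WT line were nearly absent from the rest of the series. The first spanned 38060388 to 38061991 of chromosome 14, ranked 46 of 25849 and scored 2525.38. No hg19 annotation was used here, and whether DNA of the FOXA1 construct in this line contributes to the peak was not tested, so it may not be a binding site. Its only other listing was in uninduced WT cells, at rank 363 of 8575 with a score of 741.48, so it was listed in the WT line without doxycycline and unlisted with doxycycline and DMSO. Rank 207 and a score of 1513.24 belonged to a peak at 2886811 to 2888021 of chromosome 16, listed elsewhere only with DMSO in WT cells, at rank 15970 with a score of 190.65. Rank 211 was held by a peak at 60853059 to 60854233 of chromosome 20, and rank 339 by a peak at 289534 to 290487 of chromosome Y. Both were otherwise listed only in WT cells with DMSO, at ranks 11975 and 7454. A peak at 28344800 to 28345898 of chromosome 15 (score 1344.27, rank 305) appeared nowhere else in the series. Ranks are places within lists of different lengths, so those of 1 site in several lists stand side by side without measuring a change.

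The highest-scoring private peaks of the C258A line were all listed with DMSO in the same line. The first, on chromosome 6 from 58774921 to 58780207, was 5287 bp wide, against a median of 547 bp for the list. It had a score of 1060.3 and ranked 466 of 20609, 50 of 13299 in C258A cells with DMSO and 2508 in uninduced WT cells. No artefact-prone regions were removed here, and whether this wide peak is a binding site was not tested. The second, on chromosome 7 from 16117740 to 16118903, with rank 724, was also a parental site. It ranked 134 in parental DMSO, 95 with WX-02-43, 488 with WX-02-23, 332 in uninduced C258A cells and 1567 in WT and 185 in C258A cells with DMSO, and was unlisted in WT cells with WX-02-23. The next pair, on chromosome 18 from 26602815 to 26603750 and on chromosome 7 from 145450911 to 145451522, ranked 726 and 872. They were listed only with doxycycline, at ranks 411 and 2187 in WT and 539 and 847 in C258A cells with DMSO. The last of the 5, on chromosome 1 from 198374992 to 198375787, ranked 1038, against 390 with DMSO in C258A and 4844 with DMSO in WT cells.

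Private peaks that were also parental WX-02-23 peaks ranged from weak to very strong in parental cells. In the WT line the first was on chromosome 6 from 16576462 to 16577333, at rank 417, but it ranked 16818 of 17217 in the parental WX-02-23 list. On chromosome 5 from 16542167 to 16542877, a WT peak of rank 439 ranked 4501 with WX-02-23 and 10942 with WX-02-43 in parental cells. On chromosome 3 from 197829237 to 197831223, a WT peak of rank 700 was among the strongest sites of parental cells, at rank 9 with WX-02-23, 40 with WX-02-43 and 84 with DMSO. It was listed in uninduced C258A cells (rank 5769) and in neither induced C258A list. In the C258A line, after the chromosome 7 site given above, the peaks were on chromosome 3 from 173401445 to 173402230 (rank 1608) and on chromosome 2 from 4170102 to 4170907 (rank 1638). The chromosome 2 site ranked 1021 with DMSO, 911 with WX-02-43 and 9025 with WX-02-23 in parental cells.

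WT private peaks that both lines had shown with DMSO were few, 438 of 11160 (3.92%) at the deposited lengths, against 1787 of 5937 C258A private peaks (30.1%). These shares are not matched. The C258A DMSO list is much the shorter, and WT private peaks were chosen by absence from the C258A list with WX-02-23. Part of the low WT share is therefore built in, and how large a part was not tested. The strongest WT private peak in both DMSO lists lay on chromosome 11 from 9206914 to 9207778. It ranked 524 in WT cells with WX-02-23, 3446 in WT and 12136 of 13299 in C258A cells with DMSO. Those on chromosome 3 from 175864994 to 175865975 and on chromosome 12 from 90447612 to 90448418 ranked 12877 and 10192 in the C258A DMSO list. All 3 stood in the lower part of that list of 13299. The 494 WT private peaks found in it had a median rank of 10957.5 there. Whether the choice by absence accounts for such low ranks was not tested. Genes and sequences at the positions given were not analysed here.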

How the data were processed

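Each library had its own peak list, per the labels. Per the submitters' processing notes the build was hg19 and Bowtie2 and bcl2fastq were used. The peak names begin with MACS; the caller's version, threshold and control are not given in the sources used here. The deposited files give each peak a score by the authors whose definition is not stated, so scores served only to rank peaks within a list. Input libraries were not analysed here.

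Starts were read as counted from 0 and printed from 1. Overlaps were computed with numpy 2.4.6 and pandas 2.3.3, tested on simulated data and checked against bedtools 2.31.1; Wilson intervals came from scipy 1.17.1. Equal length means the highest-scoring peaks of the longer list, and the score intervals are 10 equal slices of a list. Named peaks were the 5 strongest private ones of each list, the 3 strongest also in parental WX-02-23, the 3 strongest WT private ones in both DMSO lists, and the 3 largest rank shifts in each direction. Members, lists and rules were chosen with earlier results of these data known. With no hg19 genome used here, motif, gene and sequence analyses were not made. Each group had 1 library, so no test was made.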

Additional observations from a re-analysis of the deposited data

Results flagged for a closer look

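The share of private peaks found in the parental WX-02-23 list minus that in the parental WX-02-43 list was 3.40 percentage points for WT and -4.31 points for C258A private peaks at the deposited lengths. The values stand out because the 2 sets of private peaks point in opposite directions. Each rests on 1 library per list, and the difference was not tested.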

How the results depend on the processing

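For 11 shares, 72 alternative values were computed: 30 lay within the interval of the reported value and 42 outside it. None of these shares has a test. No paired analysis was possible because each group had 1 library. All 11 values from autosomes alone, and all 11 without peaks that overlap the siFOXA1 list, stayed within. Below, 3 shares for a parental list are for WT private, C258A private and shared peaks in that order. A reciprocal overlap of 50% gave 55.3% of WT and 69.3% of C258A peaks shared, with 16.5%, 17.2% and 31.9% in parental DMSO, 14.96%, 12.4% and 33.2% in WX-02-23, and 12.1%, 15.7% and 31.9% in WX-02-43. A gap of up to 500 bp gave 58.2% and 72.3% shared, 23.2% of WT private peaks in parental DMSO, and 45.4%, 39.5% and 38.4% of shared peaks in DMSO, WX-02-23 and WX-02-43. Equal list length gave 63.7% shared in both lines, 26.9% of C258A private and 45.6% of shared peaks in parental DMSO, 18.3%, 16.7% and 40.1% in WX-02-23, and 20.5% of C258A private and 38.8% of shared peaks in WX-02-43. The top 50% of both lists gave 55.3% and 69.3% shared, 29.9%, 27.1% and 49.9% in parental DMSO, 27.7%, 18.99% and 45.2% in WX-02-23, and 21.8%, 22.6% and 44.1% in WX-02-43. In that setting, and in no other of these, WT private peaks were more often in the parental DMSO list than C258A private peaks; the cause was not tested. Parental lists reduced to 17217 peaks gave 14.2%, 18.6% and 37.4% in DMSO, and 13.2% of WT private and 36.6% of shared peaks in WX-02-43. WT private peaks were more often in the WX-02-23 than in the WX-02-43 list, and C258A private peaks less often, under each of these alternatives. The alternatives for siFOXA1 and for the parental list length, the comparisons at 13299 and 2000 peaks, the one-to-one pairs and the strong C258A private peaks against the whole WT list, were chosen after seeing the data. Unknown depth limits every share, since a peak missing from a list can be a peak under its threshold.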

Other observations

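The uninduced lists, held more of the C258A private than of the WT private sites. At equal length, 12.8% (12.1 to 13.6%) of C258A private and 8.20% (7.60 to 8.84%) of WT private peaks were in the uninduced WT list of 8575 peaks, and 20.6% (19.7 to 21.5%) and 10.1% (9.42 to 10.8%) were in the uninduced C258A list of 12752 peaks. In the siFOXA1 list of 3018 peaks were 43 C258A private peaks (0.575%), 10 WT private peaks (0.134%) and 162 shared peaks (1.23%).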
